A study of Mus musculus with 12 samples.

Results

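The early blastocyst lies between the morula and the late blastocyst, and the genes described here are those whose RNA was set apart at that stage from both neighbours. A gene was called a transient peak when all 4 early blastocyst libraries stood above all 8 morula and late blastocyst libraries, and a transient dip when all 4 stood below them. Of the 43472 genes in the deposited table, 10751 had a mean of at least 1 deposited unit (3.58 CPM, the reads of a gene scaled to 1000000 reads in a library) over the 12 libraries and were tested. Among them 317 genes were transient peaks (2.95%) and 222 were transient dips (2.06%). The measurements were RNA-seq libraries of whole CD1 mouse embryos. Every embryo had received GFP mRNA and an siRNA as a zygote, and uninjected embryos were not analysed here. The 6 groups were control siRNA morulae, Tdgf1 siRNA morulae, control siRNA early blastocysts, Tdgf1 siRNA early blastocysts, control siRNA late blastocysts and Tdgf1 siRNA late blastocysts, with 2 libraries each. The control siRNA was the labels' negative control, and Tdgf1 encodes Cripto, a co-receptor for Nodal. The sources used here do not give the number of embryos in a library, their age in hours or the meaning of the library numbers 1 and 2. A p-value therefore refers to the variation among these libraries, and that variation could be technical.

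At the morula stage the blastomeres of the mouse embryo have compacted and the outer cells begin to take up a trophectoderm fate. In the early blastocyst a fluid-filled cavity opens, the trophectoderm forms a sealed epithelium, and the inner cells carry epiblast and primitive endoderm regulators together. By the late blastocyst the inner cell mass has largely sorted into epiblast and primitive endoderm. The proteasome, described in detail in what follows, is the protease of ubiquitin-tagged proteins. Its 20S core is a barrel of alpha and beta rings that holds the cutting sites, and its 19S cap binds the tagged protein, unfolds it with a ring of ATPases and feeds it into the core.

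Depth was even, at 10524640 to 13770264 reads per library. Tdgf1 stood at 21.7, 13.1, 9.27 and 15.2 CPM in the early blastocyst libraries, given here and below in the order control 1, control 2, Tdgf1 siRNA 1 and Tdgf1 siRNA 2. The corresponding values were 29.4, 23.4, 15.5 and 10.98 CPM in morulae and 97.3, 84.6, 49.5 and 70.8 CPM in late blastocysts, so the targeted RNA was below both controls in 5 of 6 Tdgf1 siRNA libraries and not in Tdgf1 siRNA early blastocyst 2. The early blastocyst libraries numbered 1 and 2 stood apart. Their counts differed by a chi-square statistic of 42.5 to 49.9 per gene within a group, against 20.8 to 25.2 in the other stages. The summed level of 7 trophectoderm markers was 1652 to 3690 CPM in early blastocysts, 541 to 776 CPM in morulae and 5293 to 7559 CPM in late blastocysts. Summed markers of cumulus cells (7 genes) reached at most 0.353 CPM, those of blood (3 genes) 3.88 CPM and that of oviduct (1 gene) 3.54 CPM in any library.

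Across all tested genes, early blastocyst minus the average of morula and late blastocyst, the contrast used throughout, was called higher for 1253 genes (11.7%) and lower for 1406 (13.1%) by limma at an adjusted p of 0.05. Its median over all tested genes was -0.03 on the log2(value + 1) scale, on which changes of genes at low levels appear smaller. A gene that moves in 1 direction over all 3 stages can also pass this contrast, so each neighbour was tested as well. Both tests passed in the positive direction for 364 genes (3.39%) and in the negative direction for 277 (2.58%). These tests share the early blastocyst libraries. Against the morula alone 38.4% of genes were called either way, 22.5% higher and 15.9% lower, and against the late blastocyst 48.6%, 19.4% higher and 29.2% lower. Same-numbered control and Tdgf1 siRNA libraries deviated together in morulae (correlation 0.458) and early blastocysts (0.593), and only weakly in late blastocysts (0.101). With those pairs as a random block the contrast called 659 genes higher (6.13%) and 629 lower (5.85%), and both tests passed for 188 (1.75%) and 119 genes (1.11%). Leaving out Tdgf1 siRNA early blastocyst 2 took the genes called lower to 834 and those lower against both stages to 150. Leaving out Tdgf1 siRNA early blastocyst 1 took the peaks to 480 and the dips to 446. With fewer libraries to clear the definition is looser, so a rise in these counts is built in.

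**Figure D1:**
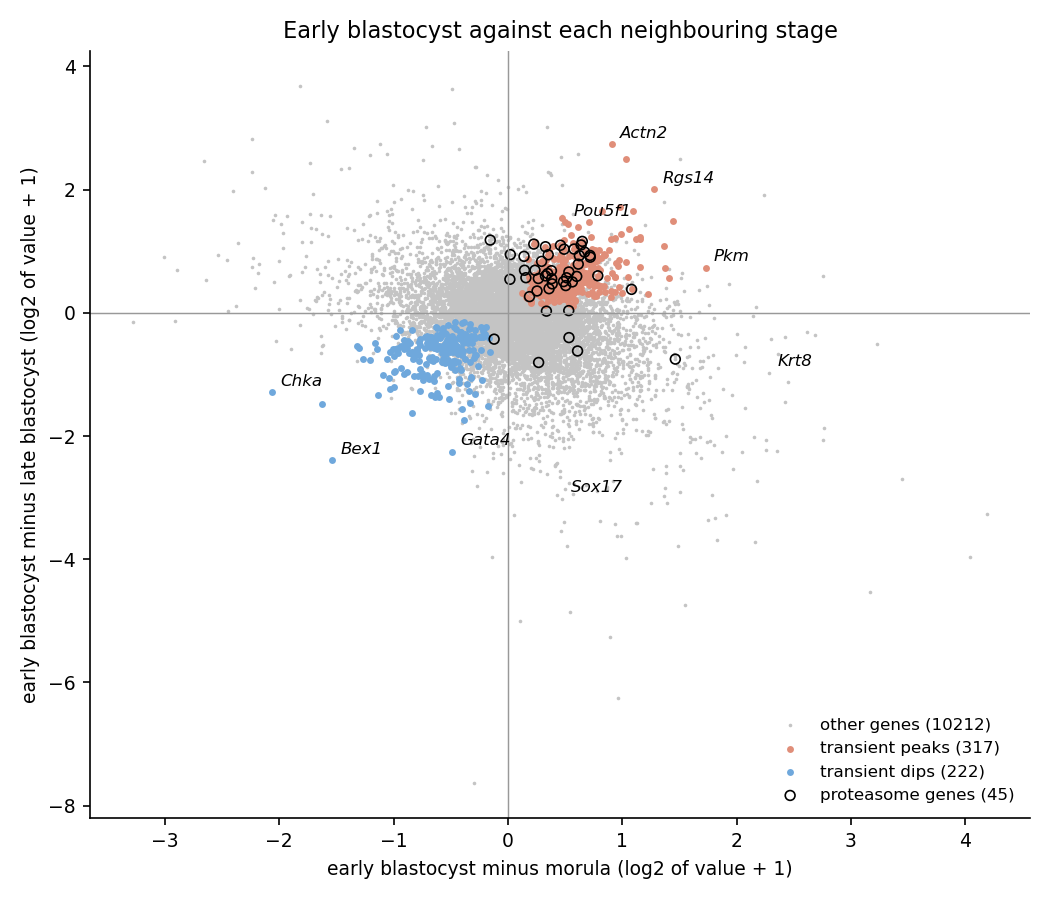
Difference of early blastocyst from morula (horizontal) and from late blastocyst (vertical), both on the log2(value + 1) scale, for 10751 genes. Peaks occupy the upper right and dips the lower left by their definition. Of the 45 proteasome genes (open circles), 42 have a positive contrast, and most lie among the peaks. The axes share the early blastocyst libraries.

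Being above or below all other libraries is part of how peaks and dips were chosen, so their contrasts are given as a description. Of the 317 peaks, 304 were also called higher in the contrast (2.83% of all genes) and 263 against both stages, and with the pair block 254 and 166. Of the 222 dips, 218 were also called lower (2.03%) and 173 against both stages, and with the block 160 and 96. The median contrast was 0.54 for peaks (range 0.18 to 1.83) and -0.60 for dips (range -1.96 to -0.21), and only 20 peaks and 15 dips reached a size of 1. Late blastocyst and morula did not pass the test against each other for 222 peaks and 157 dips, which does not show that their levels were equal. Of all tested genes 63.6% passed it. Late blastocysts were above morulae in 32 peaks and below in 63, and above in 38 dips and below in 27.

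Peaks and dips were also chosen in part of the libraries and read in the others. Chosen in the 6 libraries numbered 1 alone, 1284 genes (11.9%) were peaks, and 455 of these (35.4%) were also peaks in the 6 libraries numbered 2, where 1100 genes (10.2%) were. The shared genes made up 41.4% of the latter. Of the 1284, 77.1% had a positive contrast in the number 2 libraries, against 41.0% of all genes. Chosen in the number 1 libraries, 879 genes (8.18%) were dips, and 379 of them (43.1%) were dips among the number 2 libraries, which held 1541 (14.3%). The shared genes were 24.6% of those 1541. In the control libraries alone 863 genes were peaks (8.03%), and 422 of these (48.9%) were peaks in the Tdgf1 siRNA libraries, where 811 genes (7.54%) were. For dips it was 316 of 738 (6.86%), a share of 42.8%, with 864 (8.04%) in the Tdgf1 siRNA libraries. The arms are not independent of each other, because same-numbered libraries deviate together. The correlation of deviations was 0.593 at early blastocyst and 0.101 at late blastocyst.

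The proteasome stood higher in early blastocysts than at either neighbouring stage. Of 48 proteasome genes, 45 passed the filter, and 38 of them were called higher, against 11.7% of all tested genes. A single gene was called lower, the alternative activator Psme4, and 6 were not called. The 3 genes under the filter were Psma8, Psmb8 and Psmb11, which encode tissue-restricted subunits. Of the 45, 27 were transient peaks (2.95% of all genes) and none was a dip, and 26 were higher against both stages (3.39% of all genes). With the pair block 23 were higher against both stages (1.75% of all genes). The median contrast was 0.51, beside -0.03 for all genes. Summed over the list, the level was 18895 ± 1072 CPM in early blastocysts (SD, n = 4), 14208 ± 768 CPM in morulae and 11644 ± 1019 CPM in late blastocysts, and the 3 ranges did not overlap (17319 to 19575, 13536 to 15258 and 10721 to 12955). With the pair block 33 stayed called higher, while Psmb2, Psmb10, Psme2, Psme3 and Psmg1 did not, nor did Psme4 stay lower. In the number 1 libraries alone 42 of 45 contrasts were positive, against 53% of all genes, and 27 genes were peaks, against 11.9%. In the number 2 libraries 42 were positive, against 41.0%, and 35 were peaks, against 10.2%.

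The ATPases of the 19S cap, which unfold the substrate, showed the pattern as a complete ring. All 6 genes, Psmc1 to Psmc6, were transient peaks and higher against both stages, also with the block, with contrasts of 0.65 to 0.87. Psmc2 stood at 672, 711, 613 and 749.7 CPM in early blastocysts, against 517, 378, 441 and 426 CPM in morulae and 307, 369.6, 327 and 273 CPM in late blastocysts. Its lowest early blastocyst library lay above the highest of the others. Psmc4 stood at 693, 645, 609.9 and 644 CPM, against 435, 414, 382 and 392 CPM in morulae and 342, 338, 322 and 301 CPM in late blastocysts, a contrast of 0.83 (SE 0.07) with an adjusted p of 4.12e-06 (limma). The summed level of the 6 ATPases was 1.49 times that of morulae and 1.97 times that of late blastocysts, from 3577 ± 169.9 CPM in early blastocysts (SD, n = 4), 2407 ± 202 CPM in morulae and 1812 ± 164 CPM in late blastocysts.

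The non-ATPase subunits of the cap, which form its base and lid, receive ubiquitin chains and remove them, followed the ATPases. All 11 in the list were called higher, also with the block, 10 of them were peaks, and the median contrast was 0.70. The cap subunits Adrm1 and Shfm1 were counted with the genes beside the proteasome and not among these 11. Shfm1 was not called, at -0.20 (SE 0.09, adjusted p = 0.101, limma). Its early blastocysts were lower than morulae (-0.46, adjusted p = 0.0019, limma). Psmd11, a lid subunit (chr11:80428615-80473248 in mm10 by GENCODE M21), had the largest contrast of the list, 0.90 (SE 0.09) with an adjusted p of 2.34e-05. Its early blastocyst libraries read 572, 559.6, 613 and 567 CPM, those of morulae 405, 339, 345 and 381 CPM and those of late blastocysts 214, 289, 283 and 249 CPM. Psmd2, a scaffold of the base, read 568, 448, 529.9 and 392 CPM, against 346, 268, 311 and 244 CPM in morulae and 234, 273, 257 and 237 CPM in late blastocysts. All 4 early blastocyst values exceed the other 8, and the number 1 libraries of that stage lie above the number 2 libraries. Psmd4, a ubiquitin receptor, stood at 624, 588, 552 and 538 CPM, with 403, 312, 374 and 309.99 CPM in morulae and 280.2, 343, 284 and 321 CPM in late blastocysts. The deubiquitinase of the lid, Psmd14, had a contrast of 0.60 (SE 0.09). Of the 11, the subunit that was not a peak was Psmd7, called higher at 0.48 (SE 0.08) while its early blastocyst range overlapped the others.

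The 20S core moved less. Of the 7 alpha ring genes 6 were called higher and 2, Psma1 and Psma5, were peaks. Psma3 missed the threshold at 0.23 (SE 0.09, adjusted p = 0.0669, limma). Against the morula alone 2 of the 7 were called higher, where 22.5% of all genes were, and against the late blastocyst all 7, where 19.4% were. The summed alpha ring level was 5189.5 ± 524 CPM in early blastocysts, 4403 ± 229.8 CPM in morulae and 3395 ± 403 CPM in late blastocysts (SD, n = 4), and Tdgf1 siRNA early blastocyst 1 lay inside the morula range. The beta ring holds the cutting sites. Its 7 constitutive genes were all called higher, 6 with the block, and 5 were peaks, with contrasts of 0.38 to 0.60. Psmb5, which carries the chymotrypsin-like site, stood at 280.3, 299, 241 and 276 CPM in early blastocysts, 187, 186, 166 and 195 CPM in morulae and 179.9, 227, 177 and 188 CPM in late blastocysts. Psmb7, with the trypsin-like site, had a contrast of 0.42 (SE 0.09), but its early blastocysts did not pass against the morula (difference 0.15, adjusted p = 0.295, limma).

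Subunits outside the constitutive 26S particle were less uniform. Of the immunoproteasome beta genes Psmb10 was called higher at 0.51 (SE 0.15) but not with the block, where its adjusted p was 0.0855 (limma), and Psmb9 was not called, at 0.07 (SE 0.17). Psmb10 did not pass against morulae (-0.15, adjusted p = 0.505, limma) and was higher than in late blastocysts (1.18). Of 7 assembly chaperones 4 were called higher, with Psmd5 and Psmg2 as peaks, and Psmg3, Psmg4 and Psmd10 were not called. Psmd5, which acts on cap assembly, stood at 158, 145, 173 and 165 CPM, against 80.5, 67.2, 76.01 and 71.9 CPM in morulae and 106, 139, 135 and 112 CPM in late blastocysts. The caps that bind the core without ATP differed among themselves. Psme3, which forms the PA28 gamma cap, was a peak at 0.30 (SE 0.09), called with an adjusted p of 0.0178 (limma) and of 0.0684 with the block. Psme2, a subunit of the PA28 alpha-beta cap, stood at 83.003, 57.4, 73.4 and 61.2 CPM, between morulae at 21.9, 23.7, 22.6 and 21.3 CPM and late blastocysts at 111, 129, 98.8 and 133 CPM, and was called higher at 0.36 (SE 0.11), not with the block (adjusted p = 0.0896, limma). Its partner Psme1 had a contrast of -0.01 (SE 0.16). Psme4, which encodes PA200, stood at 127, 115, 136 and 111 CPM, 109.6, 143, 131 and 151 CPM in morulae and 165, 148, 172 and 177 CPM in late blastocysts, a contrast of -0.27 (SE 0.09) with an adjusted p of 0.0434 (limma) and of 0.118 with the block. The inhibitor Psmf1 was a peak at 0.50 (SE 0.11).

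**Figure D2:**
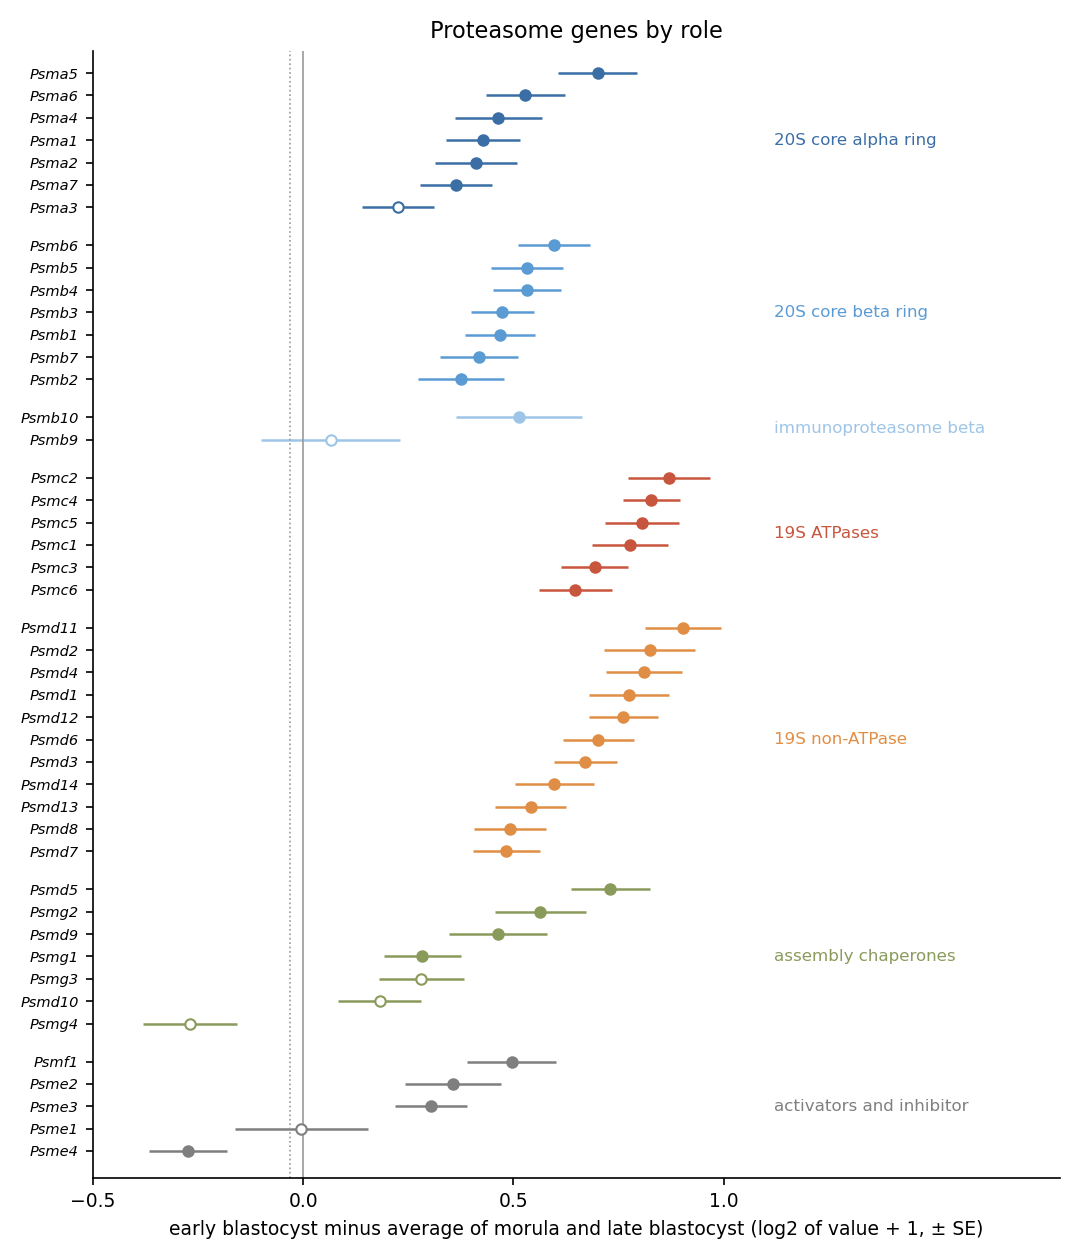
Contrast of each of the 45 tested proteasome genes (early blastocyst minus the average of morula and late blastocyst, log2 of value + 1, point and SE), grouped by role. Filled points passed an adjusted p of 0.05 and open points did not, and the dotted line is the median of all tested genes, -0.03. Both sets of 19S cap genes lie between 0.48 and 0.90, above most core, assembly and activator genes.

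Promoter letters were read for the proteasome genes because so many of them moved together. RefSeq promoter windows (GRCm38.p6, the assembly of mm10) were matched for 38 of the 45 genes. In each window 4 motifs were searched on both strands, of which the ETS core and the TEAD site share the letters GGAA. A gene was counted when any of its windows held the letters. The ETS core CCGGAAG was found for 14 of 38 genes (36.8%) and for 10 of 23 proteasome peaks (43.5%). Of all tested genes, 7830 were matched and 22.9% of these held it. The antioxidant response element TGACNNNGC was in 6 of 38 (15.8%) against 17.2%, the NF-Y box CCAAT in 13 of 38 (34.2%) against 43.6%, and the TEAD site GGAATG in 4 of 38 (10.5%) against 13.9%. Among matched genes the ETS core was found for 25.9% of all peaks and 18.9% of dips. A match describes letters and not a bound site, and the ETS core was chosen for printing after these shares were seen. The 250 bases before the RefSeq start of the proteasome peaks with the largest contrasts among those that hold the ETS core are printed 5′ to 3′ on the plus strand, the coding strand of each, to show where the letters lie, with the match, in its reverse complement, in capitals.
Psmd11, chr11:80428365-80428614: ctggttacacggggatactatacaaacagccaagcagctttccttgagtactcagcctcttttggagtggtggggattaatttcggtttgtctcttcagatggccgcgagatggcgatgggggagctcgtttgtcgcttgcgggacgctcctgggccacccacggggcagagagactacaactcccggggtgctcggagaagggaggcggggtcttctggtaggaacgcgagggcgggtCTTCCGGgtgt
Psmc2, chr5:21785025-21785274: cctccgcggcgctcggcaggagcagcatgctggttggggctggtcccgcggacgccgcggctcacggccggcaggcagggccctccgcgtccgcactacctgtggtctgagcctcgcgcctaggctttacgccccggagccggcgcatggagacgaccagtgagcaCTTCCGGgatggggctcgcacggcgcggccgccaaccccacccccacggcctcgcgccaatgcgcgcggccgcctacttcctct
Psmd2, chr16:20651402-20651651: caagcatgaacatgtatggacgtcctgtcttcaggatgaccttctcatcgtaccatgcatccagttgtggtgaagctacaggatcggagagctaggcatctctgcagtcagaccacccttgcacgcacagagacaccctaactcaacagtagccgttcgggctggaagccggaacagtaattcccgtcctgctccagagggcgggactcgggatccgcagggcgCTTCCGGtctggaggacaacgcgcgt
Counted from the start, the matches begin at -11 in Psmd11, -84 in Psmc2 and -26 in Psmd2.

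Genes that work beside the proteasome were looked at after the values of these data had been seen, in a list of 26 chosen by function. Of these 11 were called higher, 1 lower and 14 were not called, against 11.7% and 13.1% of all genes, and 6 were peaks. With the block 9 stayed called higher, while Ubqln1 (adjusted p = 0.0656, limma) and Uchl5 (adjusted p = 0.129) did not. Sqstm1, the autophagy receptor p62 that binds ubiquitin chains, had the largest contrast, 1.01 (SE 0.10). It stood at 460.4, 441, 507 and 362 CPM in early blastocysts, 319.7, 302, 313 and 330.1 CPM in morulae and 124, 159, 161 and 154 CPM in late blastocysts. Adrm1, the ubiquitin receptor Rpn13 of the cap, stood at 764, 813, 661 and 865 CPM, against 546, 381, 508 and 438 CPM in morulae and 289.6, 347, 323 and 350.4 CPM in late blastocysts. Usp14, a deubiquitinase docked on the cap, was a peak at 0.52 (SE 0.09). The adaptors Nsfl1c and Ufd1l of the unfoldase Vcp were peaks at 0.75 (SE 0.08) and 0.73 (SE 0.08), while Vcp itself was higher than late blastocysts (1.10) but did not pass against morulae (0.07, adjusted p = 0.6, limma).

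The transcription factors known for driving proteasome genes were not called higher at the RNA level. Nfe2l1, whose protein is activated when the proteasome is overloaded, stood at 31.9, 24.1, 34.7 and 26.2 CPM in early blastocysts, 38.7, 42.9, 38.2 and 46.1 CPM in morulae and 34.2, 23.9, 29.3 and 41.04 CPM in late blastocysts, a contrast of -0.29 (SE 0.13) that was not called (adjusted p = 0.125, limma). Nfe2l2 was not called either, at -0.05 (SE 0.10). Ddi2, the protease that activates the Nfe2l1 protein, was called lower at -0.70 (SE 0.13), with 31.6, 24.98, 40.2 and 21.8 CPM against 52.5, 54.3, 54.6 and 53.2 CPM in morulae and 43.8, 37.2, 47.7 and 52.5 CPM in late blastocysts.

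Protein folding genes gave a similar picture for particular machines. The chaperonin TRiC, which folds actin and tubulin, has 8 subunit genes, all of which were called higher (11.7% of all genes), 6 with the block. Tcp1, Cct3, Cct5, Cct6a and Cct8 were peaks. Cct6a stood at 560.1, 534, 498 and 482 CPM in early blastocysts, against 391, 276, 318 and 284 CPM in morulae and 254, 373, 303 and 259 CPM in late blastocysts. The sum of the 8 was 5413 to 5826 CPM in early blastocysts, above 3654 to 4741 CPM in morulae and 3526 to 4512 CPM in late blastocysts. Of 14 co-chaperones of HSP90, 10 were called higher (8 with the block), against 11.7% of all genes. As many as 8 were peaks (2.95% of all genes), Fkbp4, Ppp5c, Ruvbl2, Ahsa1, Ruvbl1, Cdc37, Ppid and Cacybp. Their summed level, 5746 to 6314 CPM in early blastocysts, overlapped that of morulae, 5121 to 5943 CPM. Against morulae 8 of the 14 were called higher (22.5% of all genes), while Ptges3 (-0.72) and Sugt1 (-0.47) were lower. Stip1, with the largest contrast (1.02), did not pass against morulae (adjusted p = 0.996, limma). Fkbp4, an immunophilin, stood at 1085, 907, 991 and 856 CPM, against 419, 399, 378 and 434 CPM in morulae and 676, 786, 805 and 823 CPM in late blastocysts. Both of these lists were also chosen after values had been seen. The chaperones of the heat shock list were mixed, with 6 of 19 called higher (4 with the block), against 11.7% of all genes, none lower, against 13.1%, and Hspb8 a peak. Hspb8, a small heat shock protein of chaperone-assisted autophagy, stood at 44.9, 27.8, 50.7 and 28.3 CPM, against 15.96, 20.7, 9.15 and 19.5 CPM and 12.7, 11.3, 17.6 and 8.21 CPM. Of 25 endoplasmic reticulum folding genes, Derl2 and Xbp1 were called higher and Dnajb9, Herpud1, Ern1 and Atf6 lower, shares near the 11.7% and 13.1% of all genes, and none of the 6 calls held with the block.

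**Figure D3:**
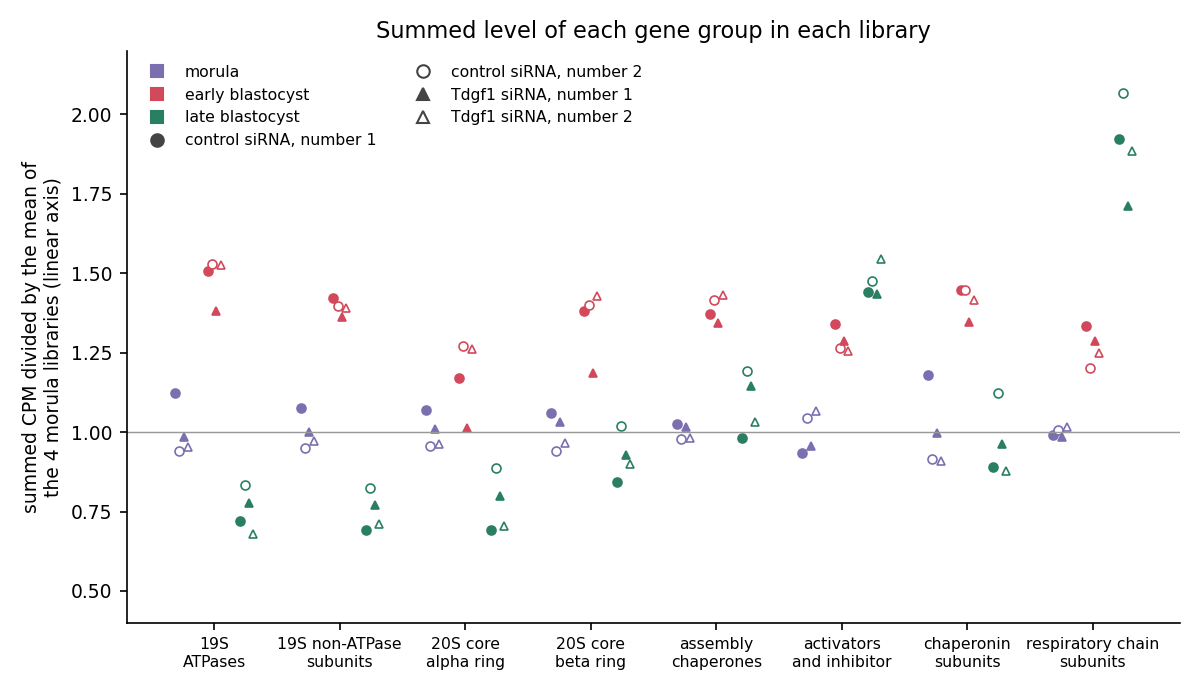
Summed CPM of 8 gene groups in each library divided by the mean of the 4 morula libraries (linear axis; colours are stages, circles control siRNA, triangles Tdgf1 siRNA, filled number 1, open number 2). The early blastocyst points lie above both other stages for the cap subunits, the beta ring, the assembly chaperones and the chaperonin, and below late blastocysts for the activators and the respiratory chain.

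Outside protein turnover, the largest peaks were single genes of diverse function. Actn2 (chr13:12269426-12340760), an actin cross-linker best known from muscle, had the largest contrast, 1.83 (SE 0.24). It stood at 43.98, 120.4, 50.05 and 62.8 CPM in early blastocysts, 20.9, 34.1, 37.4 and 40.9 CPM in morulae and 6.05, 6.79, 3.93 and 10.4 CPM in late blastocysts. Control early blastocyst 2 was high, and the lowest early blastocyst value lay close to the highest morula value. Rgs14, a regulator of G protein signalling, stood at 15.4, 29.1, 15.8 and 17.9 CPM, against 5.13, 6.56, 5.18 and 6.13 CPM in morulae and 2.66, 0.617, 2.71 and 2.38 CPM in late blastocysts. P2rx7, an ATP-gated ion channel, stood at 15.8, 17.9, 19.1 and 16.5 CPM, against 3.92, 6.37, 1.81 and 5.03 CPM and 6.88, 1.23, 1.92 and 7.59 CPM. For both genes the early blastocyst libraries lay well above the other 8. Nlrp4c, of an NLR gene family expressed in oocytes, stood at 71.1, 49.2, 63.7 and 58.5 CPM, against 28.3, 18.4, 27.96 and 32.6 CPM and 12.1, 24.1, 21.7 and 12.002 CPM. Close copies in that family make its reads uncertain.

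Cytoskeletal and membrane genes were among the other peaks with contrasts above 1. Tuba4a, an alpha tubulin, stood at 303, 297, 322 and 365 CPM in early blastocysts, 180.5, 189, 119 and 166 CPM in morulae and 77.8, 100.3, 122 and 84.7 CPM in late blastocysts, with all early blastocysts above the rest. Tubb2a, a beta tubulin, stood at 24.8, 35.9, 22.6 and 29.7 CPM, against 13.9, 11.5, 11.9 and 14.1 CPM and 5.23, 15.2, 10.2 and 11.03 CPM. Tuba4a overlaps Stk16 on the opposite strand, and Tuba4a and Tubb2a belong to families of near-identical tubulins, so reads could be shared. Orai2, a calcium channel subunit, read 12.7, 6.61, 17.6 and 7.12 CPM, with the number 1 libraries of the early blastocyst above the number 2 libraries, against 1.77, 3.04, 0.431 and 2.38 CPM and 2.02, 3.09, 3.23 and 3.88 CPM. Clic3, Lgals7, Cidea and Adat3 were further peaks, with contrasts of 1.23, 1.13, 1.10 and 1.16. Clic3 overlaps Paxx on the opposite strand, and Adat3 overlaps Scamp4 on the same strand. The transcripts Gm15622 (1.76), opposite Bhmt, and Gm12356 (1.18), opposite the proteasome gene Psmd3, were peaks as well. Psmd3 is a peak itself, and no source used here gives the strand of counting, so reads of Gm12356 and Psmd3 cannot be told apart.

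**Figure D4:**
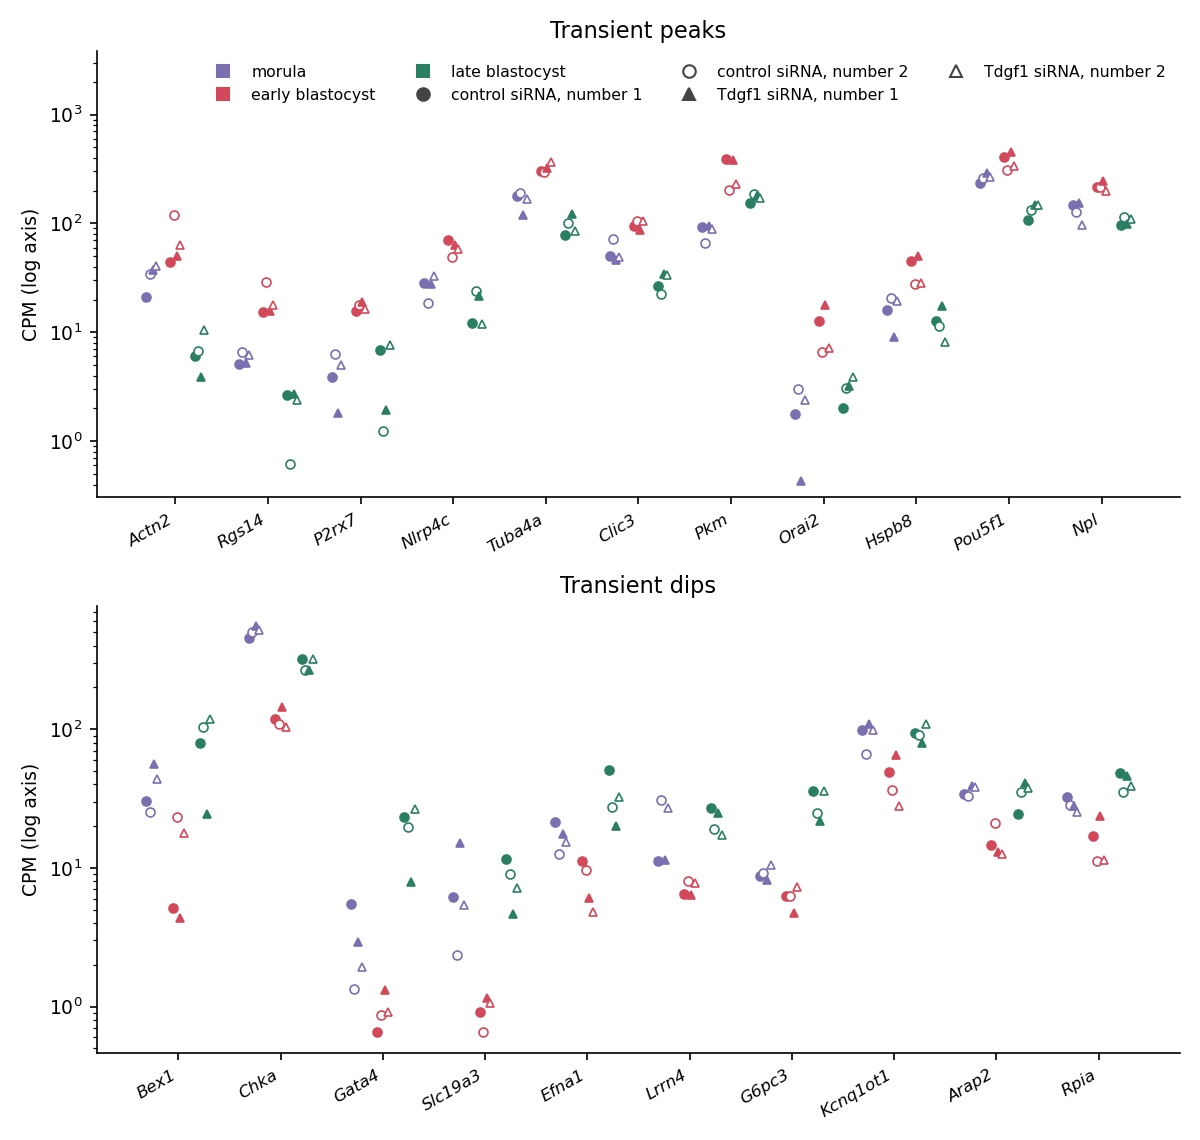
CPM on a log axis in each of the 12 libraries for 11 peaks (upper panel) and 10 dips (lower panel). Colours are stages, circles are control and triangles Tdgf1 siRNA, filled points are number 1 and open points number 2. Early blastocyst points lie above all others in the upper panel and below them in the lower, and they spread by number for Pkm, Orai2 and Bex1.

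Some enzymes of glycolysis were called higher in the contrast, among them Pkm. Pkm encodes pyruvate kinase M and stood at 394, 203, 379 and 228 CPM in early blastocysts, 93.2, 65.5, 94.7 and 88.3 CPM in morulae and 154, 185, 180.4 and 172 CPM in late blastocysts. The number 1 early blastocyst libraries lay well above the number 2 libraries, and all 4 exceeded the other 8. Its contrast was 1.23 (SE 0.16), with an adjusted p of 0.000141 (limma). Of 27 tested genes of the glycolysis and hypoxia list, 8 were called higher (7 with the block), against 11.7% of all genes, and Vegfa was called lower (-0.79). Gapdh (0.94), Eno1 (0.76), Aldoa (0.63) and Pgam1 (0.44) were among the 8, but only Pkm and the transcription factor Arnt (0.59) were peaks. The median contrast of the list was 0.09. Its median difference was 0.62 above morulae and -0.30 for early minus late blastocyst. Only Pkm and Arnt, 2 of the 27, were higher against both stages (3.39% of all genes).

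Subunits of the respiratory chain gave the opposite balance. Of 79 tested, 25 were called lower (13 with the block), against 13.1% of all genes, and 4, Ndufs8, Uqcrc1, Uqcrc2 and Ndufv1, higher (only Uqcrc2 with the block). Against the morula alone 36 of the 79 were called higher, where 22.5% of all genes were, and none was against the late blastocyst, where 19.4% were. The median difference was 0.23 from morula to early blastocyst and -0.60 for early minus late blastocyst. The sum was 18773 ± 829.6 CPM in early blastocysts, 14813 ± 214 CPM in morulae and 28093 ± 2151 CPM in late blastocysts (SD, n = 4). Cox6c, Cox7c and Uqcrb were dips. Cox7c, a small subunit of cytochrome c oxidase, stood at 273, 271, 311 and 269.9 CPM in early blastocysts, 334, 339, 318 and 358 CPM in morulae and 502, 615, 504 and 456 CPM in late blastocysts. Its difference from morulae passed the test (-0.26, adjusted p = 0.0495, limma) but not with the block (adjusted p = 0.152).

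Pou5f1, the core pluripotency factor Oct4, was a transient peak. It stood at 410.1, 310.3, 454 and 337 CPM in early blastocysts, 233, 261, 293 and 265 CPM in morulae and 108, 133, 148 and 147 CPM in late blastocysts, a contrast of 0.99 (SE 0.10, adjusted p = 3.19e-05, limma). Libraries of whole embryos do not separate cell types, so fewer cells of a type and less RNA per cell cannot be told apart. Nanog had a contrast of similar size, 0.94 (SE 0.16), from a fall after the early blastocyst. Its early blastocyst libraries read 292, 427, 354 and 420.2 CPM and those of morulae 349, 560.4, 286 and 403 CPM, with no difference past the test (adjusted p = 0.783, limma), and those of late blastocysts 85.1, 80.7, 115 and 95.9 CPM. Sox2 stood at 16.9, 4.14, 24.8 and 10.5 CPM, above morulae at 2.33, 1.90, 1.90 and 2.65 CPM and overlapping late blastocysts at 11.8, 6.17, 10.6 and 14.8 CPM. Its contrast of 0.81 (SE 0.25) lost the call with the block (adjusted p = 0.0658, limma) and without either early blastocyst library numbered 1. Of 28 tested epiblast and pluripotency genes 9 were called higher (4 with the block), against 11.7% of all genes, and 4 lower (3 with the block), against 13.1%. The median difference of the 28 was -0.29 from morulae and 0.34 for early minus late blastocyst. Higher against both stages was 1 of the 28, near the 3.39% of all genes. Pou5f1 was 1 peak of 28, near the 2.95% of all genes. The genes called lower were Tdgf1 (-1.21), Morc1, Bmp4 and Sall4. Sall4, a zinc finger partner of Oct4, was a dip at 143, 146, 165 and 152 CPM, against 183, 201, 193 and 238 CPM in morulae and 219, 169, 177 and 189.7 CPM in late blastocysts, and its contrast of -0.36 (SE 0.09) missed the threshold with the block (adjusted p = 0.0517, limma).

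Of 25 tested trophectoderm regulators 8 were called lower (6 with the block), against 13.1% of all genes, and 2, Tead4 and Msx2, higher (neither with the block), against 11.7%. None was a peak or a dip, which is near the 2.95% and 2.06% of all genes. Their median difference was 0.41 above morulae and -1.03 for early minus late blastocyst. Krt8, a keratin of the trophectoderm, stood at 1665, 715, 1536 and 792 CPM in early blastocysts, 252, 148, 272 and 239 CPM in morulae and 2232, 2585, 1757 and 2117 CPM in late blastocysts. Its contrast of 0.66 (SE 0.22) lost the call with the block (adjusted p = 0.0725, limma) and on leaving out any of 6 single libraries. Cdx2, the regulator of trophectoderm fate, read 139, 57.3, 184 and 79.4 CPM, 55.3, 52.3, 75.1 and 45.6 CPM and 108, 91.6, 111 and 143 CPM in early blastocysts, morulae and late blastocysts. The early blastocyst libraries numbered 1 exceeded those numbered 2 more than 2-fold, and the contrast, 0.38 (SE 0.22), was not called. It was negative, -0.23, with only the number 2 early blastocysts. Gata3 lay between the other stages at 232, 151, 282 and 175 CPM, with 71.8, 90.5, 93.6 and 105 CPM and 428, 399, 425 and 425 CPM. Of 32 junction and polarity genes 8 were called lower, 7 with the block, against 13.1% of all genes. The median difference of the 32 was 0.31 above morulae and -0.57 for early minus late blastocyst. Against the morula alone 12 of the 32 were called higher, where 22.5% of all genes were. Cldn6 was called higher at 0.70, not with the block (adjusted p = 0.0546, limma).

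Of 15 tested genes of blastocoel fluid transport 4 were called lower, against 13.1% of all genes, and none higher, against 11.7%. Of the 4, Slc12a2 and Aqp9 kept the call with the block. Aqp9, an aquaporin that also passes glycerol, was a dip at 62.3, 79.3, 51.9 and 74.8 CPM, against 119, 126, 103 and 102 CPM in morulae and 115, 93.5, 83.1 and 112 CPM in late blastocysts. The sum of the list was 644 to 784 CPM in early blastocysts, below 881 to 963 CPM in morulae and 1027 to 1228 CPM in late blastocysts. Slc12a2, a sodium, potassium and chloride cotransporter, had the most negative difference from morulae in the list, -2.90, and stood at 21.8, 48.9, 20.8 and 40.4 CPM in early blastocysts, 288, 199.9, 310.1 and 234 CPM in morulae and 19.98, 15.8, 21.9 and 14.2 CPM in late blastocysts. Slc12a2 makes up most of the gap between the sums of morulae and early blastocysts. The median difference of the list from morulae was 0.01, and 3 members were called higher than in morulae. Atp1b1, a sodium pump subunit, climbed from 22.02, 24.7, 41.6 and 42.7 CPM in morulae through 124, 68.4, 153 and 77.7 CPM to 279.7, 241, 225 and 208 CPM. Aqp3 was not called, at -0.27 (SE 0.16).

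Of 23 tested primitive endoderm genes 12 were called lower (9 with the block), against 13.1% of all genes, and Npl and Cited1 higher, near the 11.7% of all genes. None of the 23 was called lower against both stages, near the 2.58% of all genes. The median difference of the list was 0.16 above morulae and -1.51 for early minus late blastocyst. Cited1 was lower than in morulae (-0.71, adjusted p = 0.00678, limma) and higher than in late blastocysts (3.01). Gata4, which drives the primitive endoderm programme, was a dip at 0.661, 0.871, 1.31 and 0.919 CPM, against 5.51, 1.33, 2.93 and 1.92 CPM in morulae and 23.5, 19.7, 7.86 and 26.4 CPM in late blastocysts. The early blastocyst levels are low, and the difference from morulae did not pass (-0.49, adjusted p = 0.151, limma). Sox17 was near 0 in morulae, at 0, 0, 0.173 and 0.0915 CPM, and read 1.16, 0.436, 0.820 and 4.29 CPM in early and 45.3, 44.6, 23.6 and 40.5 CPM in late blastocysts. Gata6 fell from 378, 433, 392 and 456 CPM in morulae to 207, 257, 259.8 and 248 CPM and read 217, 175, 284 and 245 CPM in late blastocysts. Its contrast of -0.34 (SE 0.10) was not called with the block (adjusted p = 0.0803, limma) or without control 1 or Tdgf1 siRNA 2 of the early blastocyst. Npl, which encodes the sialic acid lyase, was a peak at 215, 216, 244 and 197 CPM, against 147, 127, 153 and 96.7 CPM and 97.1, 115, 98.2 and 110.05 CPM.

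Among the dips, Chka (chr19:3851773-3894369), choline kinase alpha, the opening step of phosphatidylcholine synthesis, stood at 118, 108, 145 and 104 CPM in early blastocysts, 452, 498, 552 and 519 CPM in morulae and 322, 265, 269 and 319 CPM in late blastocysts. The highest early blastocyst value was below the lowest of the other 8, and the contrast was -1.68 (SE 0.10, adjusted p = 1.21e-07, limma). It kept its call against each neighbour with the block. Chka overlaps Gm16066 on the opposite strand.

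Bex1 had the most negative contrast, -1.96 (SE 0.38), with a large spread. It stood at 5.13, 23.4, 4.35 and 17.8 CPM in early blastocysts, 30.5, 25.5, 56.3 and 43.7 CPM in morulae and 79.8, 104, 24.4 and 118 CPM in late blastocysts. The number 1 early blastocysts were the lowest, and control early blastocyst 2 lay just under the lowest other library. Bex1 overlaps Tceal7 on the opposite strand. Slc19a3, a thiamine transporter, stood at 0.909, 0.654, 1.15 and 1.07 CPM, against 6.16, 2.38, 15.2 and 5.40 CPM and 11.6, 9.10, 4.63 and 7.15 CPM. Efna1, an ephrin ligand, stood at 11.2, 9.59, 6.07 and 4.82 CPM, against 21.5, 12.6, 17.5 and 15.5 CPM and 50.7, 27.4, 20.1 and 32.5 CPM. Lrrn4, a leucine-rich repeat membrane protein, was even at 6.45, 8.06, 6.40 and 7.81 CPM in early blastocysts, while morulae read 11.2, 30.8, 11.4 and 26.9 CPM, with number 2 above number 1, and late blastocysts 27.2, 18.97, 24.9 and 17.2 CPM. Arap2, a GTPase-activating protein, read 14.6, 21.2, 12.96 and 12.6 CPM, against 34.2, 33.1, 39.2 and 38.2 CPM and 24.7, 35.02, 41.1 and 37.4 CPM. In each of these genes the early blastocyst values lay below the rest by definition, and their contrasts were -1.24, -1.23, -1.13 and -1.05.

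Rpia, the ribose-5-phosphate isomerase of the pentose phosphate pathway, stood at 16.9, 11.3, 23.8 and 11.5 CPM in early blastocysts, 32.6, 28.3, 27.8 and 25.4 CPM in morulae and 48.5, 35.2, 46.3 and 39.01 CPM in late blastocysts. G6pc3, a glucose-6-phosphatase, stood at 6.28, 6.32, 4.76 and 7.35 CPM, against 8.68, 9.12, 8.20 and 10.5 CPM and 35.6, 24.8, 21.6 and 36.01 CPM. Its difference from morulae did not pass the test (-0.38, adjusted p = 0.0922, limma), so that dip lies mostly against the late blastocyst. Kcnq1ot1, the imprinted antisense RNA of the Kcnq1 domain, stood at 49.4, 36.7, 64.7 and 27.8 CPM, against 98.9, 66.3, 108 and 98.8 CPM and 93.4, 90.9, 79.6 and 109 CPM. It overlaps Kcnq1 and cannot be told apart from it here. RP24-317P24.2, Gm17131 and Gm29055, transcripts of unknown role, were dips at -1.10, -0.96 and -0.95. The first has no single GENCODE match, and Gm17131 is typed as a pseudogene, so its reads may belong to a parent gene.

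Other lists added single dips and peaks. Kdm5a, a demethylase of lysine 4 of histone H3, was a dip at 84.2, 59.5, 76.6 and 50.7 CPM, against 115, 87.98, 96.4 and 104 CPM and 134, 118, 100.03 and 106 CPM. Of 37 chromatin genes 11 were called lower (4 with the block), against 13.1% of all genes, and Hdac1, Hdac2, Tet2 and Ezh1 higher (Hdac1 and Hdac2 with the block), near the 11.7% of all genes. Zmat3, a p53 target, was a dip at -0.96 (SE 0.20), and of 32 p53 and apoptosis genes 7 were called lower (5 with the block), against 13.1% of all genes, and 2 higher (neither with the block), against 11.7%. Pramel7, a maintainer of naive pluripotency, was a dip at 253, 379, 337 and 351 CPM, against 544, 611, 634 and 667 CPM and 457, 453, 473 and 433 CPM. Of the sterol and fatty acid list 5 of 30 were called lower (2 with the block), near the 13.1% of all genes, and none higher, and Elovl6 (-0.42) and Acsl3 (-0.39) were dips, Acsl3 not called with the block (adjusted p = 0.0784, limma) or without either number 2 early blastocyst.

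Cell cycle genes divided. Birc5 (0.39), Bub3 (0.42) and the helicase subunit Mcm7 (0.62) were peaks, and the centromeric histone Cenpa (-0.37) was a dip. Mcm7 shares its locus with Cops6 and Ap4m1 on the opposite strand. Of 36 G2 and M phase genes 5 were called higher and 4 lower, near the 11.7% and 13.1% of all genes. The amino acid and integrated stress response list had 9 of 25 called lower (4 with the block), against 13.1% of all genes, led by Nupr1 (-1.17) and Asns (-0.97), and 5 higher. Ribosomal protein genes, 81 tested, had 9 called higher (4 with the block), a share near the 11.7% of all genes, and 2, Rps27l and Rps27, lower (neither with the block), and Rpl4 (0.35) was a peak. Khdc3 (0.50), a maternal effect gene, Atp6v0c (0.45), of the proton pump of lysosomes, and Anxa7 (0.58) were peaks in their lists. Mob1b of the Hippo pathway was a dip at -0.43 (SE 0.13), not called with the block (adjusted p = 0.0785, limma) or without Tdgf1 siRNA early blastocyst 2.

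**Figure D5:**
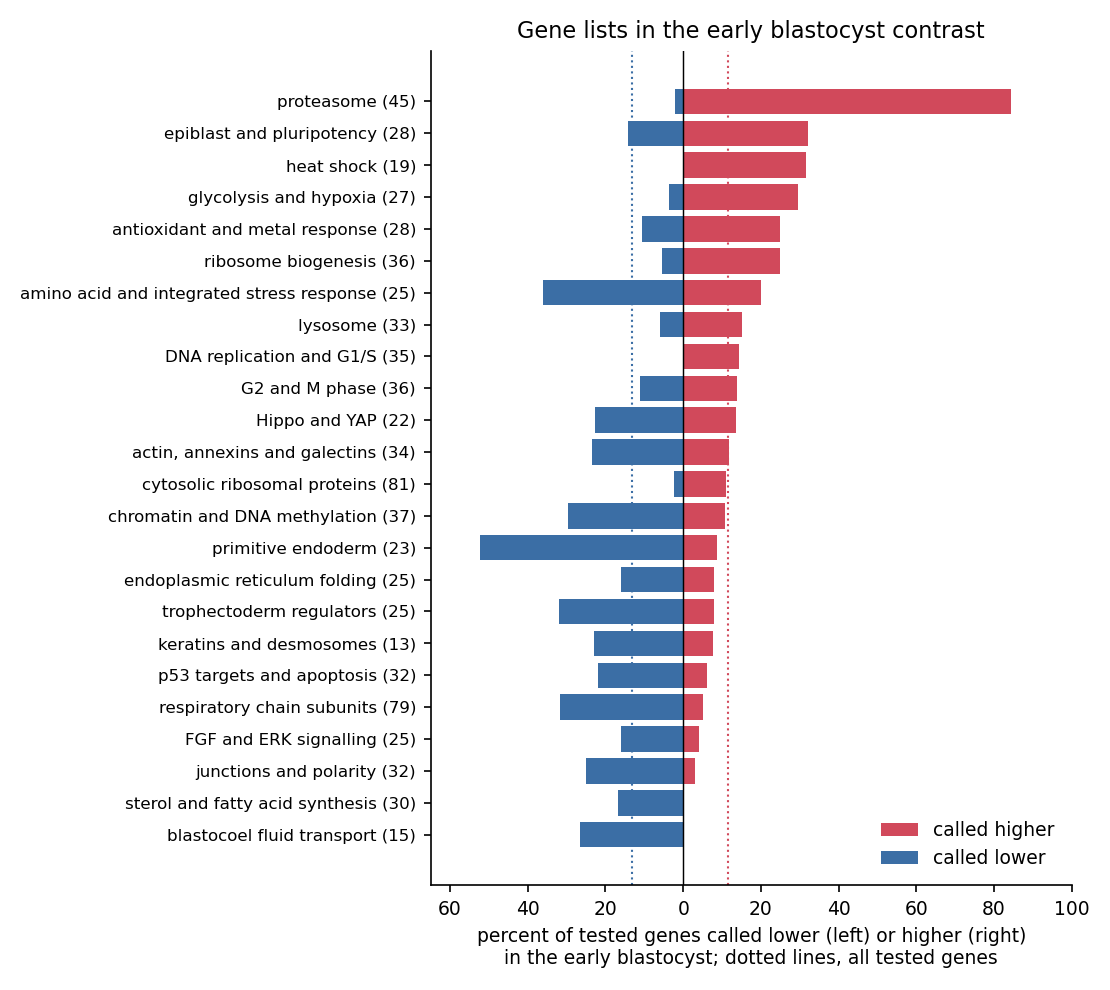
Percent of the tested genes of each list (number tested in brackets) called higher (right, red) or lower (left, blue) in the contrast, for lists with at least 10 tested genes. Dotted lines mark all tested genes, 11.7% higher and 13.1% lower. The proteasome bar reaches 84.4% on the higher side, and primitive endoderm genes have the longest bar on the lower side.

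Peaks had shorter and dips longer transcripts than tested genes at the median. The longest GENCODE transcript had a median of 2421 bases for the 303 peaks matched, 4262 for the 205 dips and 3183 for the 10234 tested genes matched. Peaks had a median level of 96.5 CPM and dips one of 30.1 CPM, beside 31.5 CPM for all tested genes. Across 5 equal classes of the genes by length, the share of peaks went from 4.10% in the shortest to 0.83% in the longest and that of dips from 1.07% to 3.71%. The median contrast went from 0.06 to -0.18, and to -0.06 in the number 1 and -0.29 in the number 2 libraries alone. Proteasome transcripts had a median of 1883 bases and respiratory chain transcripts one of 1186 bases. The part of length in the peaks, the dips and these lists was not tested. Of peaks 90.5% and of dips 84.2% were protein coding, beside 88.2% of tested genes. At early blastocyst 148 of 222 dips were higher in the number 1 than in the number 2 libraries, and 165 of 317 peaks were.

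The siRNA arm made no detectable difference to the contrast in fits that did not use the same-numbered pairs. No gene of 10751 (0%) passed the test of the contrast in Tdgf1 siRNA libraries minus that in control libraries by limma, edgeR or DESeq2. With limma 110 genes had an unadjusted p under 0.05. Same-numbered libraries of the arms deviate together, less so in late blastocysts (correlation 0.593 at early and 0.101 at late blastocyst). Variation between the pairs therefore enters the error of these tests and can hide a difference between arms. The arm difference was also fitted with the pairs, and those counts are not given here. Whether the arms differ within pairs is therefore left undecided. In the control libraries alone 43 of 45 proteasome contrasts were positive (median 0.56), against 47.4% of all genes, and in the Tdgf1 siRNA libraries alone 41 (median 0.49), against 46.2%. With 2 libraries in a group, small differences between arms would not be detected.

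The edge of the definition was narrow, and its members differ beyond the digits printed. Pdhb, of pyruvate dehydrogenase, was the peak closest to it, at 471, 553, 468 and 539 CPM in early blastocysts against 468, 418, 423 and 397 CPM in morulae and 385, 396, 337 and 295 CPM in late blastocysts. Phb, prohibitin, fell just short, at 276, 302, 288 and 308 CPM against 176, 184, 174 and 166 CPM and 249.6, 233, 208 and 276 CPM, although its contrast was larger (0.51 beside 0.39). Among dips Oxsr1, a kinase of ion transport, was just inside at 46.3, 33.4, 51.2 and 38.3 CPM, against 52.7, 56.6, 64.5 and 72.3 CPM and 53.9, 55.998, 51.2 and 66.98 CPM. Flrt3, at 0 in all early blastocyst libraries, was just outside, since 3 morula libraries were also at 0.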

How the data were processed

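The deposited table, headed RPKM, held 12 RNA-seq libraries. Per the submitters' processing notes HISAT2 2.1.0, Cufflinks, HTSeq, edgeR and mm10 were used, with no roles given, and per the labels' protocols libraries came from the SMARTer Ultra Low Input and NEBNext Ultra DNA kits. The authors deposited CPM values divided by 3.58, as the values themselves show, with no length normalisation and no step of it given per the file headers. All columns have the same sum, and every value was a whole number of reads within 0.01, at 10524640 to 13770264 reads per library, where 3 reads are 0.218 to 0.285 CPM. Levels are given as CPM and cannot be compared between genes. The design had assumed RPKM, and limma on log2(value + 1) was kept as the test. All 37 mitochondrial names were at 0. Gene names matched 1 GENCODE M21 gene for 39424 names (90.7%), and 27 names had turned into dates.

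Genes with a mean of at least 1 were fitted in limma 3.58.1 (R 4.3.3), stage with the siRNA arm as covariate, with Benjamini-Hochberg adjustment over 10751 genes and a threshold of 0.05. The fit had 8 residual and 7.80 prior degrees of freedom. Libraries with the same number deviated together across arms in morulae and early blastocysts and only weakly in late blastocysts (correlations 0.458, 0.593 and 0.101). The labels do not say what a number marks. The stage and number pair was therefore also fitted as a random block, with 1 consensus correlation for all stages (0.380). Across stages the numbers did not go together (0.050, 0.040 and -0.102). edgeR 4.0.16 and DESeq2 1.42.0 on the recovered reads, other filters, pseudocounts, scalings and left-out libraries were alternatives. The fit was tested on simulated data.

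Members and gene lists were chosen with earlier results of these data known. Named are the 14 peaks and 12 dips with the largest contrasts past the threshold, outside predicted gene models and date names, 2 predicted models at each end, up to 4 peaks and 4 dips per list, 14 fixed lineage and pathway genes, and the genes at the edge of the definition. Other members of the lists were named after their values were seen, and some genes of the rule are not reported here.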

Additional observations from a re-analysis of the deposited data

How the results depend on the processing

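Median contrasts of the proteasome were positive under each alternative. The counts that follow are of genes higher, lower, higher against both stages and lower against both. They were 760, 910, 231 and 157 without a filter, and 884 genes were lower at a mean of at least 5. With the random pair block (replicate block) they were 659, 629, 188 and 119. With pair means as the replicate block they were 325, 333, 131 and 75, with 5 chaperonin genes, 926 peaks and 871 dips. With the number as a term they were 1406, 1571, 407 and 325. The control libraries alone gave 212, 186, 82 and 31, with 20 proteasome and 3 chaperonin genes, 864 peaks and 735 dips. The Tdgf1 siRNA libraries alone gave 122, 123, 55 and 45, with 14 proteasome and 5 chaperonin genes, 814 peaks and 865 dips. These fits hold fewer samples. With fewer libraries or pair means to clear, the counts of peaks and dips rise by definition, apart from changes of the filter. With the early blastocysts numbered 2 only, 457 genes were lower against both, with 722 peaks and 1056 dips. With those numbered 1 only, 720 were lower and 150 lower against both, with 812 peaks and 406 dips. The libraries numbered 1 gave 1284 peaks and 879 dips and those numbered 2, filtered on their own means, 1096 and 1528. Leaving out 1 library gave 909 to 1190 higher, 834 to 1464 lower, 258 to 349 and 150 to 318 against both, 327 to 480 peaks, 233 to 446 dips, 35 to 39 proteasome and 6 to 8 chaperonin genes, and 0 genes for the arm difference. edgeR called 1422 higher and 1089 lower, and DESeq2 1547 and 1361.

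Genes not called changed sign. Cdkn1a, at -0.07, was at 0.035 in edgeR, 0.030 in DESeq2, -0.34 to 0.16 with 1 library left out, 0.29 with the number 2 early blastocysts only, 0.39 in controls and 0.28 in the number 2 libraries. Gata3, at 0.07, was at -0.070 to 0.19 with 1 library left out, -0.26 with the number 2 early blastocysts only and -0.30 in the number 2 libraries. The last 2 settings gave -0.27 and -0.25 for Atp1b1 and -0.23 and -0.15 for Cdx2. Fgf4, at 0.09, was at -0.062 in controls and -0.11 in the number 2 libraries. Without control early blastocyst 2, Cdx2 was called at 0.63 (adjusted p = 0.0409, limma). The causes were not tested.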
